A study of Mus musculus with 2 samples.

Results

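The miRNAs described here reach their mature form without one of the enzymes of the usual pathway. They are 7 of the 1915 mature miRNA names in the count table, taken by name for their route. The first, mmu-miR-451a, is cut by Ago2. Hairpins that form at a transcription start give mmu-miR-320-3p and mmu-miR-484, and mmu-miR-877-5p, mmu-miR-877-3p, mmu-miR-1224-5p and mmu-miR-702-3p are listed as mirtrons. The prefix mmu, for mouse, is left out of most names below. Small RNA was sequenced from unstimulated bone marrow-derived macrophages (BMDMs), cells grown from bone marrow progenitors into macrophages in culture, of wild-type C57/BL6 mice 8 weeks of age. The labels give 2 biological replicates of this single condition, and any further library of the study was not analysed here. The total over all names was 7322969 counts for replicate 1 and 8094314 for replicate 2.

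As background, a canonical miRNA is cut from its primary transcript by Drosha with its partner Dgcr8, and the hairpin that results is cut by Dicer. The miR-451 hairpin is released by Drosha but is too short for Dicer; Ago2 slices it and the end is then trimmed, and the product is known for its abundance in red cell precursors. A mirtron is a short intron that splicing and debranching turn directly into a Dicer substrate, with no Drosha cut. For miR-320 and miR-484 the transcript itself is the hairpin, with a capped 5′ end at the start of transcription, so that Drosha is again not needed.

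The RefSeq sequences used here, on build GRCm38.p6, matched 6 of the 7 names. No entry was found among them for miR-320-3p, so its sequence, hairpin and position are not given. The mature sequences of the 6 matched names are shown so that their ends and base composition can be compared. Capitals mark the seed, bases 2 to 8, through which a miRNA pairs with its targets.
miR-451a: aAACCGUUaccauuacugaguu
miR-484: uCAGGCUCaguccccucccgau
miR-877-5p: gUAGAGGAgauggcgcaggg
miR-877-3p: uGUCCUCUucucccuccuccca
miR-1224-5p: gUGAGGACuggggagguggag
miR-702-3p: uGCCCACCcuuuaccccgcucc
The 6 seeds differed from each other, and 0 other mouse names in the reference shared any of them. The mirtron arms among the 7 names differed in base composition. C and U made up 20% of miR-877-5p and 19.05% of miR-1224-5p, against 90.9% of miR-877-3p and 81.8% of miR-702-3p. Over the 1679 mature sequences of the reference the median was 50%, and 0.119% had a share of C and U at least as high as miR-877-3p.

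A pair of whole hairpins shows how a slicer product and a mirtron differ; here capitals mark the mature miRNAs.
miR-451a hairpin: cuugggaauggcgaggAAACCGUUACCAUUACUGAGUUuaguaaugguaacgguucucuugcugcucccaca
miR-877 hairpin: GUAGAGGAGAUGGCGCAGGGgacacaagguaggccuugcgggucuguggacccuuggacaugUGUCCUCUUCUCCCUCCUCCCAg
In the structure of lowest free energy predicted by RNAfold, the mature miR-451a took bases 17 to 38 of the 72-base hairpin. Its last 4 bases were the terminal loop, bases 35 to 38, so the mature form ran down the 5′ strand of the stem and through the loop. In the 85-base miR-877 hairpin the 5p arm began at base 1 and the 3p arm ended at base 84, and neither entered the predicted loop at bases 45 to 48.

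The hairpin of miR-451a lies on chr11:78073170-78073241, plus strand, outside any host gene of the GENCODE annotation, with Mir451b annotated on the opposite strand. The hairpin of miR-144, a canonical miRNA, lies 99 bases upstream on the same strand. The hairpin of miR-484 lies on chr16:14159626-14159692, plus strand, inside the span of Marf1, which is on the opposite strand, and shares 19 bases with an untranslated exon of a Marf1 transcript. The nearest gene start on its own strand is that of Nde1, 3649 bases from the start of the hairpin.

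Of the 3 mirtron hairpins, those of miR-877 and miR-1224 match an annotated intron base for base. Mir877, on chr17:35960730-35960814, minus strand, is the whole 85-base intron between exons 12 and 13 of Abcf1, which codes for an ATP-binding cassette protein that acts in translation. Mir1224, on chr16:20604452-20604536, plus strand, is an 85-base intron of Vwa5b2. Their 5p sequences therefore begin with the GU of the splice site. Mir702, on chr5:136991433-136991541, plus strand, does not have the intron's ends. Its host is the 102-base intron between exons 13 and 14 of Plod3, a collagen lysyl hydroxylase. The hairpin starts 9 bases earlier, in coding sequence, and stops 2 bases before the intron's end, whereas the 5p mature sequence starts at base 10 of the hairpin, the first base of the intron.

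**Figure D1:**
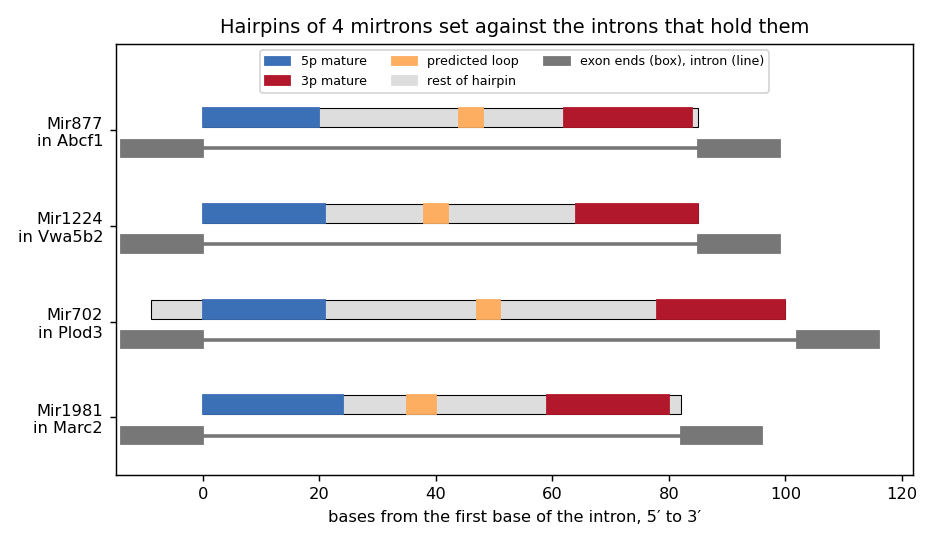
Hairpins of 4 mirtrons (light bars) with their mature arms and predicted loop, drawn to scale above the intron that holds each one (line) and the ends of its exons (dark boxes, cut off); the x axis gives bases from the intron's first base, 5′ to 3′. The hairpins of miR-877, miR-1224 and miR-1981 span the intron exactly, and that of miR-702 starts 9 bases before it.

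Shares below are percent of the library total, the sum of all miRNA counts of a library. A read covers a whole mature miRNA, so counts need no correction for length, although ligation and PCR favour some sequences. All 95% intervals are Wilson intervals for shares and exact intervals for ratios, and both describe counting error alone, with each read taken as independent. Several PCR reads can stem from 1 molecule when molecules carry no identifiers, so the intervals can be too narrow even for that error. The p-values of the binomial and Fisher's exact tests below have the same limits. Both tests treat reads as independent molecules and hold no spread between replicates. In these bulk libraries, fewer cells that make a miRNA and less of it per cell cannot be told apart.

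Transcription-start hairpins supplied nearly all counts of the 7 names. They held 27044 counts in replicate 1 and 29814 in replicate 2, a share of 0.369% ± 0.000687 (SD, n = 2) of the library total. Most of these counts were of miR-484, 24882 and 27428, while miR-320-3p took 0.0295% of the library total. The 4 mirtron names together held 508 and 493 counts, or 0.00651% ± 0.000598 (SD, n = 2). The Ago2-cut miR-451a held 7 and 8 counts, or 9.72e-05% ± 2.29e-06 (SD, n = 2). Together the 7 names took 0.375% ± 0.00128 (SD, n = 2) of all counts, and of this sum 98.2% came from transcription-start hairpins, 1.73% from mirtrons and 0.0259% from miR-451a. The ratio of transcription-start counts to mirtron counts was 53.2 in replicate 1 and 60.5 in replicate 2. With the mirtrons of a wider list added, the mirtron share was 0.0161% and this ratio 23.7 and 22.3.

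**Figure D2:**
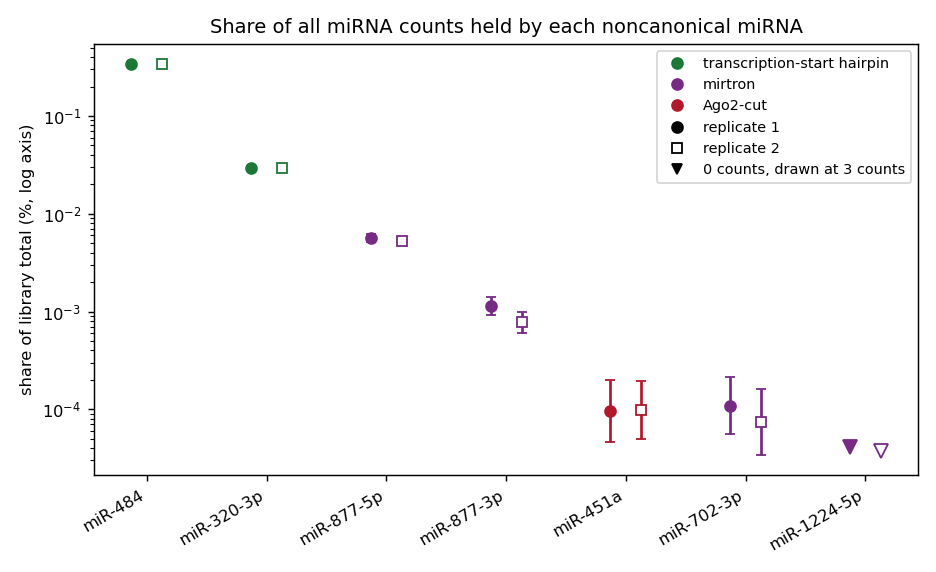
Share of the library total in percent, on a log axis, for the 7 miRNAs in replicate 1 (filled) and replicate 2 (open), coloured by route, with 95% Wilson intervals. From miR-484 at 0.339% the shares fall to miR-451a and miR-702-3p, whose intervals overlap; triangles place miR-1224-5p, at 0 counts, at the level of 3 counts.

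The most abundant of the 7 was mmu-miR-484. Its 24882 counts in replicate 1 made up 0.340% of the library (95% interval 0.336 to 0.344), and its 27428 counts in replicate 2 made up 0.339% (95% interval 0.335 to 0.343). Both libraries placed it in the upper ranks, 38 and 36 of 1915 names. By mean share it stood at rank 38, between miR-30b-5p at 0.343% ± 0.0232 (SD, n = 2) and miR-25-3p at 0.328% ± 0.00336 (SD, n = 2), both canonical. For scale, miR-21a-5p, the most abundant miRNA of these macrophages, held a mean share of 26.8%, 79.1 times that of miR-484.

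The second, mmu-miR-320-3p, had 2162 and 2386 counts, a share of 0.0295% ± 3.26e-05 (SD, n = 2). The 95% interval ran from 0.0283 to 0.0308% in replicate 1 and from 0.0283 to 0.0307% in replicate 2. Its rank was 105 in each library and 107 by mean share, next to miR-301b-3p at 0.0302% and miR-181a-1-3p at 0.0289%. The ratio of miR-484 counts to miR-320-3p counts was 11.51 in the first library and 11.50 in the other. This ratio within a library does not depend on any scaling, and Fisher's exact test between the libraries gave p = 0.975 (adjusted p = 0.975 over 3 tests of such ratios). The other arm, miR-320-5p, had 4 counts in replicate 1 and 0 in replicate 2, where a count of 0 allows a share of up to 3.71e-05% of the library (3 counts). The 3p arm thus made up 99.8% (95% interval 99.5 to 99.9) and 100% (95% interval 99.8 to 100) of the hairpin's counts. An exact two-sided binomial test in each library gave an adjusted p too small for the computation to represent, over 6 tests of arms. miR-484 has a single name in the table, so no arm share can be given; its mature sequence takes bases 5 to 26 of the 67-base hairpin, before the predicted loop.

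Among the 3 mirtron hairpins of the 7 names, that of miR-877 carried most counts. Of its arms, mmu-miR-877-5p had 417 counts in replicate 1, or 0.00569% (95% interval 0.00517 to 0.00627), and 424 in replicate 2, or 0.00524% (95% interval 0.00476 to 0.00576). It ranked 184 by mean share, between miR-139-5p and miR-194-5p, whose mean shares were 0.00549% and 0.00543%. Counts of mmu-miR-877-3p, from the pyrimidine-rich 3′ end of the same intron, were 83 and 63, a share of 0.000956% ± 0.000251 (SD, n = 2). By mean share it ranked 310, between miR-188-3p at 0.000958% and miR-200a-3p at 0.000954%. The 5p arm made up 83.4% (95% interval 79.9 to 86.4) of the counts of both arms in replicate 1 and 87.1% (95% interval 83.8 to 89.8) in replicate 2. The excess of 5p over 3p gave an adjusted p of 2.20e-54 and 1.84e-66 in the exact two-sided binomial test within each library. Between the libraries, the ratio of arms, 5.02 and 6.73, gave p = 0.108 in Fisher's exact test (adjusted p = 0.3225 over 3 tests of such ratios). The remaining ratio tested, miR-320-3p over miR-877-5p, was 5.185 and 5.627 (p = 0.276, adjusted p = 0.414, Fisher's exact test).

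The hairpins of miR-702 and miR-1224 gave few counts or none. mmu-miR-702-3p had 8 and 6 counts, 0.000109% (95% interval 5.54e-05 to 0.000216) and 7.41e-05% (95% interval 3.40e-05 to 0.000162). With 3 and 4 counts of miR-702-5p, the 3p arm was 72.7% of 11 counts and 60.0% of 10 counts; the exact binomial test gave adjusted p = 0.272 and 0.754, so an arm preference was not detectable at this depth. mmu-miR-1224-5p had 0 counts in both libraries, which allows a share of up to 4.10e-05% in replicate 1 and 3.71e-05% in replicate 2 (3 counts), and miR-1224-3p also had 0 in both. Both arms of miR-877 summed to 500 and 487 counts.

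**Figure D3:**
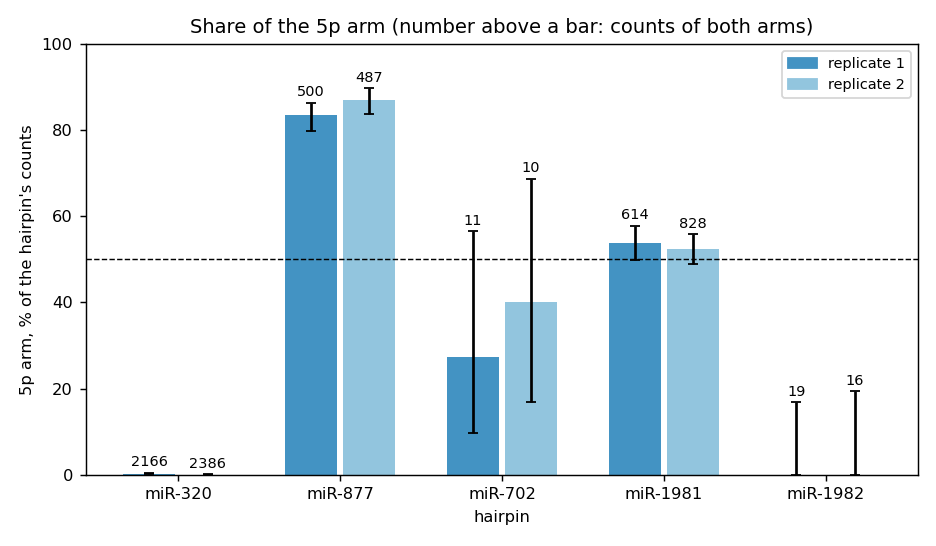
Share of the 5p arm among the counts of both arms, in percent, for 5 hairpins in replicates 1 and 2; error bars are 95% Wilson intervals, numbers are the counts of both arms and the dashed line marks equal arms. The 5p arm dominates in miR-877, the 3p arm in miR-320 and miR-1982, and the intervals of miR-702 are wide.

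The slicer product mmu-miR-451a, with 7 and 8 counts, had a share of 9.56e-05% (95% interval 4.63e-05 to 0.000197) in replicate 1 and 9.88e-05% (95% interval 5.01e-05 to 0.000195) in replicate 2. The antisense miR-451b had 0 counts in both. miR-144, made from the same primary transcript by Drosha and Dicer, had 4 counts in each library: miR-144-3p had 2 and 0, miR-144-5p 2 and 4. Counts of miR-451a exceeded those of both miR-144 arms 1.75-fold and 2-fold, and the exact binomial test gave adjusted p = 0.640 in replicate 1 and 0.493 in replicate 2, so a difference between the neighbours was not detectable at this depth. The list of erythroid markers had 5 names in the table and summed to 7901 counts in replicate 1 and 7367 in replicate 2. Nearly all of it was miR-486a-5p, with 3956 and 3683 counts, and miR-486b-5p, with 3934 and 3672, names of near-identical hairpins that can share reads, so that the sum may count reads more than once. The other names of the list were miR-451a itself and the arms of miR-144, with the counts above.

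In the order of mean share the 7 names ran miR-484, miR-320-3p, miR-877-5p, miR-877-3p, miR-451a, miR-702-3p, miR-1224-5p. The first 4 neighbouring pairs kept this order in both libraries, with mean ratios of counts of 11.5, 5.41, 5.88 and 9.87. In exact binomial tests within each library, adjusted over 14 tests, the weakest of these 4 pairs was miR-877-3p against miR-451a, at adjusted p = 2.63e-17 in replicate 1 and 1.80e-11 in replicate 2. The pairs were set by the order in these same counts, so the tests give no separate support for that order. miR-451a and miR-702-3p changed places between the libraries and did not differ beyond counting error (adjusted p = 1 and 0.851, exact binomial test). Last came miR-1224-5p, with 0 counts in each library against 8 and 6 of miR-702-3p.

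For the replicate ratio, the share in replicate 2 was divided by that in replicate 1, and each name with at least 10 counts summed was tested by Fisher's exact test with Benjamini-Hochberg adjustment over all 588 such names. The test compares these libraries, not conditions. By library totals, 0 of the 6 members tested were called at an adjusted p under 0.05, while 44.2% of the 588 names were called, 81 higher and 179 lower in replicate 2. At an unadjusted p under 0.05 the count was 1 of 6, miR-877-3p, against 48.1% of the 588 names. The call of miR-877-3p depended on the setting. Fisher's exact test gave adjusted p = 0.0402 at a minimum of 50 counts summed, where 62.9% of 383 names were called, and adjusted p = 0.0387 after thinning to equal totals, where 43.3% of 584 were. The same exact test gave adjusted p = 0.0952 with no filter beyond 1 count summed, 0.162 with TMM and 0.223 with DESeq2 size factors. The share of miR-484 was 0.997 times as high in replicate 2 (log2 ratio -0.0039, 95% interval -0.029 to 0.021, adjusted p = 0.890 by Fisher's exact test). For miR-320-3p the ratio was 0.998 (log2 ratio -0.0023, 95% interval -0.087 to 0.082). miR-877-5p had a ratio of 0.920 (log2 ratio -0.12, 95% interval -0.32 to 0.078) and miR-877-3p of 0.687 (log2 ratio -0.54, 95% interval -1.04 to -0.052, p = 0.0252 and adjusted p = 0.0561 by Fisher's exact test). Intervals were too wide to place miR-451a, at a ratio of 1.03 (log2 interval -1.61 to 1.74), or miR-702-3p, at 0.678 (log2 interval -2.36 to 1.16). By route, the ratio was 0.997 for transcription-start hairpins (log2 interval -0.028 to 0.020), 0.878 for the 4 mirtron names (log2 interval -0.37 to -0.0061) and 1.03 for miR-451a. The mirtron ratio depended on the scaling and on the names summed. It was 0.955 with TMM (log2 interval -0.25 to 0.12) and 0.970 for unscaled counts (log2 interval -0.22 to 0.14). By library totals it turned above 1, to 1.06, with the mirtrons of the wider list added (log2 interval -0.033 to 0.20), and to 1.05 over the names of hairpins that match an intron exactly (log2 interval -0.041 to 0.19); these alternatives were chosen after seeing the data.

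**Figure D4:**
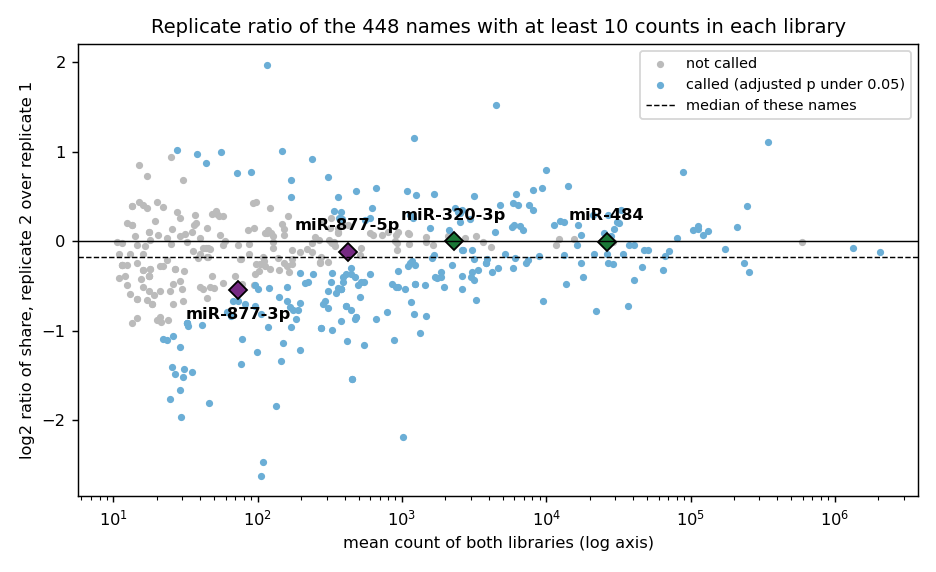
Log2 ratio of share, replicate 2 over replicate 1, against the mean count of both libraries on a log axis, for the 448 names with at least 10 counts in each library; diamonds mark the 4 members among them. miR-484 and miR-320-3p lie at 0 by library totals, above the dashed median of -0.17, and miR-877-3p lies below it.

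By library totals, miR-484 and miR-320-3p lay closer to 0 than most names of like depth, a distance that depends on the scaling. Among the 57 names with a mean of at least 10000 counts the SD of the log2 ratio was 0.31, 50 were called, and 2 had a ratio closer to 0 than miR-484. Among the 86 names from 1000 to 10000 counts the SD was 0.49, 74 were called, and 0 had a ratio closer to 0 than miR-320-3p. miR-877-5p had 33 of 146 names in its range of 100 to 1000 counts closer to 0, and miR-877-3p had 102 of 159 names in its range of 10 to 100.

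The zero point of these ratios depended on the scaling. By library totals the median log2 ratio of the 448 names was -0.17. Relative to that median, miR-484 and miR-320-3p both stood at 0.17, miR-877-5p at 0.053 and miR-877-3p at -0.37. In the depth range of miR-484, 22 of 57 names lay closer than it did to this median of all 448 names. The same held for 30 of 86 names in the range of miR-320-3p, 6 of 146 in that of miR-877-5p and 82 of 159 in that of miR-877-3p. The median within a range differed with depth: it was -0.0035 among the 57 names of at least 10000 counts, where 29 names had a higher ratio than miR-484 and 27 a lower one, -0.097 among the 86 names in the range of miR-320-3p, and -0.255 and -0.27 in the ranges of miR-877-5p and miR-877-3p. With TMM scaling, 43.7% of the 588 names were called, 119 higher and 138 lower in replicate 2; with DESeq2 size factors 42.7% were called, 124 higher and 127 lower. The DESeq2 size factors came to 1 in both libraries, so this setting compares the counts as they stand, with no correction for the difference between the totals. Under each of these scalings 2 of 6 members were called, miR-484 and miR-320-3p, both higher in replicate 2. miR-484 had a log2 ratio of 0.12 with TMM (adjusted p = 8.89e-20) and 0.14 with DESeq2 size factors (adjusted p = 5.94e-28), by Fisher's exact test. For miR-320-3p the log2 ratio was 0.12 (adjusted p = 0.0146) and 0.14 (adjusted p = 0.00281) in the same exact test. The ratio of miR-484 to miR-320-3p within a library is free of this choice.

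**Figure D5:**
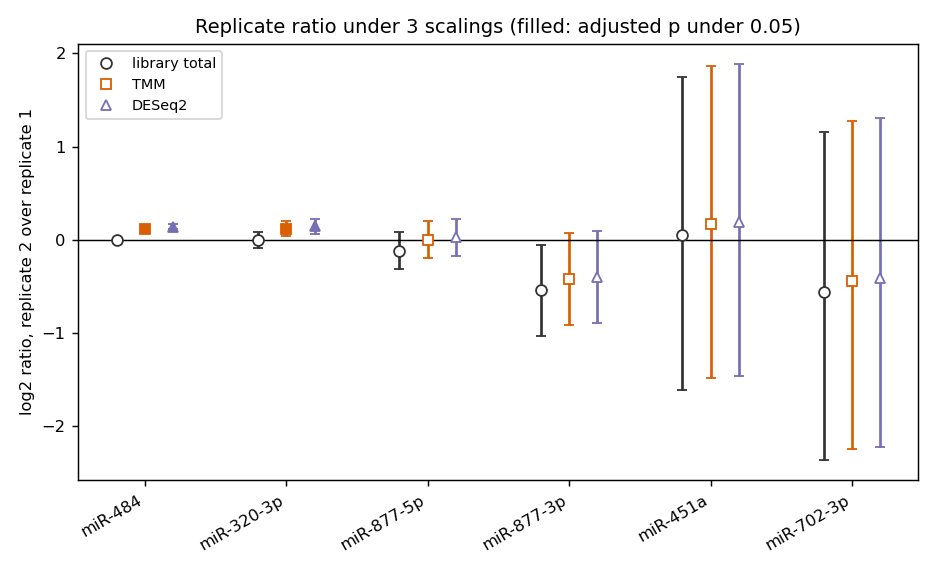
Log2 ratio, replicate 2 over replicate 1, of the 6 members with at least 10 counts summed under 3 scalings, with exact 95% intervals; filled symbols have an adjusted p under 0.05. miR-484 and miR-320-3p sit at 0 by library totals and at 0.12 to 0.14 under TMM and DESeq2 scaling. miR-877-3p and miR-702-3p are below 0 under each, with no call, and their intervals include 0 under TMM and DESeq2 scaling.

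A wider list of 16 noncanonical names held 5452 counts in replicate 1 and 6619 in replicate 2, 0.0744% and 0.0818% of the library totals, and 6 of its names had 0 counts in both. Of the 9 tested, 3 were called higher and 1 lower in replicate 2 by library totals, and 4 higher and 0 lower under TMM as under DESeq2 scaling, a share of called names near the 44.2% over all names. The name with the most counts was miR-1839-5p, described as derived from a small nucleolar RNA, with 2166 and 3058 counts (log2 ratio 0.35, adjusted p = 1.32e-17 by Fisher's exact test), although the annotation used here places its hairpin in the long noncoding RNA 2900076A07Rik. miR-1983, described as derived from a tRNA, had 1637 and 1595 counts and was the name called lower (log2 ratio -0.18, adjusted p = 0.00106, Fisher's exact test), a log2 ratio close to the median of all names. The hairpins of miR-664 and miR-1291 overlap the annotated Snora36b and Snora34; miR-664-3p had 383 and 391 counts, miR-664-5p 276 and 366, and miR-1291 20 and 9. Short hairpins described as independent of Drosha, miR-344 and miR-668, had 0 counts for all 4 names in both libraries.

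miR-1981, a mirtron outside the 7 names, had counts in the range of miR-877. Its hairpin is the whole 82-base intron between exons 5 and 6 of Marc2. miR-1981-5p had 331 and 434 counts and miR-1981-3p 283 and 394, and both were called higher in replicate 2 by library totals (log2 ratio 0.25 and 0.33, adjusted p = 0.0463 and 0.00806 by Fisher's exact test). The 5p share of its counts was 53.9% (95% interval 49.9 to 57.8) in replicate 1 and 52.4% (95% interval 49.0 to 55.8) in replicate 2, against 83.4% and 87.1% for miR-877; this difference between hairpins was not tested. miR-1982, the whole 74-base intron between exons 5 and 6 of Oaz1, had 19 and 16 counts of the 3p arm and 0 of the 5p arm. miR-3102-3p had 2 and 0 counts and miR-3102-5p 0 in both.

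The samples are labelled as macrophages. All 6 macrophage and myeloid names were counted in both libraries and summed to 35.7% and 35.4% of the totals, with miR-21a-5p the most abundant, at 2048580 and 2081016 counts. Against 44.2% of all names, and 50 of the 57 names with a mean of at least 10000 counts, of these 6 names 1 was called higher and 5 lower in replicate 2 by library totals, 1 and 4 under TMM, and 2 and 4 under DESeq2 scaling, where miR-21a-5p changed direction. Between the libraries miR-146a-5p had 202138 and 482820 counts, and miR-155-5p 725 and 359. The lymphoid miR-150-5p had 202 and 88 counts. The 2 megakaryocyte and endothelial names, the arms of miR-126a, summed to 458 and 374 counts, of which miR-126a-5p held 355 and 286. The 5 stromal names summed to 1749 and 1303, led by miR-143-3p at 1370 and 949. The 5 epithelial names summed to 1115 and 1338, led by miR-200b-3p at 496 and 827, and miR-205-5p had 1 and 0. By library totals, 2 of 3 erythroid names tested, the lymphoid name, 1 of 2 arms of miR-126a and 2 of 5 stromal names were called lower in replicate 2. Each of these counts was the same under TMM and DESeq2 scaling. Of the 4 epithelial names tested, 1 was called higher and 2 lower by library totals. Under TMM and under DESeq2 scaling 1 epithelial name was called higher and 1 lower. The part of these lists in the replicate ratios of the 7 names was not tested.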

How the data were processed

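Total RNA was depleted of rRNA and made into small RNA libraries, and the authors aligned the trimmed reads to the mouse hairpins of miRBase with Bowtie 0.12.7. The deposited values are raw counts, whole reads per mature miRNA name, not normalised. Neither the miRBase release nor the rules for mismatches and multiply matching reads are given in the sources used here, and these can move counts between near-identical miRNAs or count a read under several names. Some related names held equal counts in both libraries, so library totals may count some reads more than once. The submitters' processing notes name DESeq2. In the reference, 1623 of 1915 names matched.

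Shares were computed as counts over the library total. Members, marker lists and alternatives were chosen with earlier results of these data known. With 1 condition there were no groups to compare. Libraries were compared by two-sided Fisher's exact tests with Benjamini-Hochberg adjustment at 0.05, and miRNAs within a library by exact binomial tests adjusted over their family. The Fisher's exact test was also run on simulated counts that held counting error alone. Those counts had no spread between replicates, so the run cannot show how the test behaves on these libraries. The comparison of ratios between libraries, 3 Fisher's exact tests, was chosen after seeing the data. TMM came from edgeR 4.0.16 and size factors from DESeq2 1.42.0, in R 4.3.3; other tests used scipy 1.17.1, and structures RNAfold 2.7.2. Positions were taken from GENCODE M21 and RefSeq, both GRCm38. Named miRNAs were the lists, the nearest names above and below each member with at least 10 counts in both libraries, names sharing a seed, and miR-21a-5p.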

Additional observations from a re-analysis of the deposited data

How the results depend on the processing

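Of 89 values recomputed under an alternative, 64 kept their direction, their call or their size within the spread of the libraries. These 64 include shares, arm shares and the ratio of miR-451a to miR-144 from each library alone and from pooled reads. With 2 libraries such values lie within the SD around the mean by construction. They could therefore not be counted as changed, whatever the data. The order of the members in replicate 1 alone, with 5 of 6 pairs in order, was also among the 64. Without miR-21a-5p in the total, the share rose to 0.504% for transcription-start hairpins, 0.00892% for mirtrons, 0.000133% for miR-451a and 0.513% for all 7, by construction. Over names with at least 10 counts in every library, miR-451a fell out, leaving 0%. With the wider list the mirtron share was 0.0161% and that of all names 0.4535%. Mirtrons chosen by annotation, after seeing the data, gave 0.01695% within 10 bases of the intron ends and 0.0166% at exact ends. Members called went from 0 to 2 under TMM, 2 under DESeq2, 1 at a minimum of 50 counts summed (miR-877-3p, log2 ratio -0.54, adjusted p = 0.0402, Fisher's exact test, with fewer names tested) and 1 after thinning to equal totals (miR-877-3p, -0.62, adjusted p = 0.0387). Log2 ratios that changed sign were those of miR-484 (0.12 with TMM, 0.14 with DESeq2), miR-320-3p (0.12, 0.14, and 0.0040 after thinning) and miR-877-5p (0.00093 and 0.024), since TMM and DESeq2 scaling raise every ratio by the same amount; for thinning the cause was not tested. That of the 4 mirtron names together turned to 0.082 with the wider list, 0.072 for exact intron ends and 0.065 within 10 bases, sets that add other names. Each library alone gave 0.368 to 0.369% for transcription-start hairpins, 0.00609 to 0.00694% for mirtrons, 9.56e-05 to 9.88e-05% for miR-451a, 0.375 to 0.376% for all 7, 5 to 6 of 6 neighbour pairs in order, 83.4 to 87.1% for the 5p arm of miR-877, 99.8 to 100% and 60.0 to 72.7% for the 3p arms of miR-320 and miR-702, and 1.75 to 2 for miR-451a over miR-144. No paired analysis was possible because there was a single group. With 2 libraries and counts under 10, miR-451a and miR-702-3p had ratios that depth could not resolve.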

Other observations

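Among the 1005 hairpins of the reference, 16 had both ends exactly at the ends of an annotated intron, and 23 had them within 10 bases; this search was chosen after seeing the data. The exact set had 30 names with a mature sequence in the reference, of which 9 were counted in both libraries and 18 had 0 counts in both. Together they held 1185 counts in replicate 1 and 1377 in replicate 2, a share of 0.0166% ± 0.000587 (SD, n = 2). Hairpins of miR-877 and miR-1981 held most of these counts. Beyond those described, the names with the most counts were miR-7091-5p, with 23 and 21, and miR-7068-3p, with 27 and 16.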
